A study of Mus musculus with 2 samples.

Results

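Postsynaptic density scaffolds of the mouse hippocampus were described from their long-read RNA-seq models: Dlg4, Dlg2, Dlgap1, Dlgap3, Dlgap4, Shank1, Shank3, Homer1 and Homer3. The 9 genes were chosen by name, as all rows of both quantification tables annotated with one of these symbols, and they stood among 17540 annotated genes with reads in replicate 1 and 16653 in replicate 2. The study sequenced full-length cDNA of hippocampus (labelled as a layer of the hippocampus) from female B6CASTF1/J mice aged 14 days (first-generation hybrids of the C57BL/6J and CAST/EiJ strains). It has 1 group of 2 libraries, each a pool of 3 animals, made from 2 µg of RNA with spike-in RNA added, and it has no treatment, mutant or second age. One description line carried by both libraries gives the same animals, while each library's own characteristics give different animals, so whether the pools are separate animals rests on the second label. Replicate 1 held 1168366 reads on 143443 transcript models and replicate 2 held 888704 reads on 126438 models. A single read was worth 0.856 CPM (read counts scaled to a common library total) in replicate 1 and 1.13 CPM in replicate 2, and the limit set by a count of 0, taken as 3 reads, was 2.57 CPM in replicate 1 and 3.38 CPM in replicate 2.

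The postsynaptic density is the protein sheet under the membrane of an excitatory synapse, and its scaffolds are stacked in layers. Dlg4 (PSD-95) and Dlg2 (PSD-93) are membrane-associated guanylate kinases that hold glutamate receptors at the membrane. Dlgap proteins (also called SAPAP or GKAP) bind their guanylate kinase domain and tie it to the Shank proteins, and Shank proteins bind Homer proteins, which link to metabotropic glutamate receptors and to calcium stores. Long Homer proteins form tetramers through a coiled coil at their C-terminal end. The short Homer1 protein, known as Homer1a, is made from a transcript that stops early, lacks the coiled coil and competes with the long forms.

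The markers of the labelled tissue were present. All 5 neuron markers had reads in both libraries (3704 CPM in replicate 1 and 4304 CPM in replicate 2), as did all 7 markers of excitatory hippocampal neurons (2139 and 2331 CPM, of which Slc17a7, the vesicular glutamate transporter, made up 1131 and 1353 CPM). Within this list, Prox1, a marker of granule cells, had 8 reads in replicate 1 and 34 in replicate 2, and Pcp4 had 369 and 202, so that the excitatory markers did not move together. The 4 oligodendrocyte markers summed to 4534 CPM in replicate 1 and 6138 CPM in replicate 2, the 5 astrocyte markers to 2638 and 4274 CPM, the 4 microglia markers to 205 and 262 CPM, and the 4 interneuron markers to 252 and 290 CPM, with Slc32a1 at 0 reads in replicate 1 and 2 in replicate 2. Not all markers moved with the sum of their list. Against it went the interneuron marker Sst, with 72 reads in replicate 1 and 20 in replicate 2, and the oligodendrocyte marker Mog, with 5 and 1. Gad1 (172 and 236 CPM) moved with the interneuron sum. Of the microglia markers, C1qa (67.6 and 65.3 CPM) and C1qc (83.0 and 84.4 CPM) were nearly level, while P2ry12 (47.1 and 99.0 CPM) was higher in replicate 2. The 4 choroid plexus markers summed to 4636 CPM in replicate 1 and 5.63 CPM in replicate 2, with Kcnj13, Clic6 and Folr1 at 0 reads in replicate 2. Replicate 1 thus held choroid plexus transcripts that replicate 2 all but lacked, and the part of these cell type differences in the values below was not tested. In bulk tissue, fewer cells of a type and less RNA per cell cannot be told apart.

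The sequences on which the exon choices below turn are shown first, as segments of the GENCODE M21 transcripts on GRCm38 (mm10), all on the plus strand and read 5′ to 3′. Capitals mark the exon or exon part that is present in one form and absent in another, and the 12 lower-case bases on either side are the neighbouring exonic bases of the spliced transcript (for the short-form tail of Homer1, which ends at its stop codon, on the 5′ side only). Dlgap1 has a small exon of 30 nt (chr17:70718196-70718225), whose length keeps the reading frame.
Dlgap1 30-nt exon: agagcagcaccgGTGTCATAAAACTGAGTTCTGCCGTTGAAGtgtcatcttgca
Homer1 has an optional exon of 36 nt (chr13:93386345-93386380), also in frame, which separates the long forms 1c (with it) and 1b (without it).
Homer1 36-nt exon: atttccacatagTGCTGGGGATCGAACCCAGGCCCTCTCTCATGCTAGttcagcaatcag
The short form of Homer1 leaves the shared exon through a tail of its own, shown to its stop codon (chr13:93356080-93356113).
Homer1 short-form coding tail: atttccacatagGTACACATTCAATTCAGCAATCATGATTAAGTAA
Dlgap4 has neighbouring exons of 80 nt (chr2:156748023-156748102) and 89 nt (chr2:156748332-156748420), which share their flanks in the spliced transcript and are separated by 229 nt of the genome. Both lengths leave a remainder of 2 when divided by 3 and differ by 9 nt, so that one in place of the other keeps the frame, whereas both together or neither shift it.
Dlgap4 80-nt exon: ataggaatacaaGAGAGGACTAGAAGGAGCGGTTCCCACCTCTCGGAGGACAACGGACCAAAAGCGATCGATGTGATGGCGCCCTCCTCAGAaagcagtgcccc
Dlgap4 89-nt exon: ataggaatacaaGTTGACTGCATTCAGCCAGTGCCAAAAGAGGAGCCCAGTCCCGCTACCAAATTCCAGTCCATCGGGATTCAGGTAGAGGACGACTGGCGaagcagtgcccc
Dlgap3 has alternative acceptors 33 nt apart at one exon, so that the capitals (chr4:127235385-127235417) are kept or dropped in frame.
Dlgap3 33-nt exon part: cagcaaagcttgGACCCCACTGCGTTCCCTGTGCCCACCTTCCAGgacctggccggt
Dlg4 has an exon of 110 nt (chr11:70043658-70043767) that is skipped in Dlg4-205, a transcript annotated as a target of nonsense-mediated decay. Its length also leaves a remainder of 2 when divided by 3.
Dlg4 110-nt exon: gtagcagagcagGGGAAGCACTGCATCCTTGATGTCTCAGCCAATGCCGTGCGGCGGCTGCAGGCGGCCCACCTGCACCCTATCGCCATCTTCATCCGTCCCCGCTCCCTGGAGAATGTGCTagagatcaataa

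All 9 scaffolds were detected in both libraries, together at 938 and 870 reads, which were 803 CPM in replicate 1 and 979 CPM in replicate 2. Levels were also set on a scale of CPM per kilobase, by the length of the annotated protein-coding transcript with the most reads. Where a gene had no reads on such a transcript, as in Shank1 and Shank3, the longest annotated transcript was used. On this scale Dlgap1 was highest, at 65.8 in replicate 1 and 93.7 in replicate 2, and Dlg2 was lowest, at 2.08 and 2.59. Between them came Homer3 (39.2 and 60.3 CPM per kilobase), Dlgap3 (37.2 and 48.4), Dlgap4 (30.6 and 30.5), Dlg4 (26.0 and 23.5), Homer1 (18.8 and 24.3), Shank3 (8.02 and 10.4) and Shank1 (4.88 and 4.01). The ranges of Homer3 and Dlgap3 overlapped, as did those of Dlg4 and Homer1. The other neighbours in that order did not overlap between their 2 libraries. The order rests on transcripts of unlike length, 2173 nt for Dlgap1 and 9826 nt for Shank1, against a median of 2873 nt over all tested genes. Another Dlgap1 transcript, Dlgap1-214, has 4617 nt after its first junction alone. Without division by length the order differed. In replicate 1, Dlgap4 (148 CPM) and Dlgap3 (145 CPM) stood above Dlgap1 (143 CPM), and Homer3 (95.9 CPM) stood below them.

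Among the membrane-associated guanylate kinases, Dlg4 (ENSMUSG00000020886.17, chr11:70016942-70047522, mm10) was covered by 106 reads in replicate 1 and by 73 in replicate 2. This was 90.7 and 82.1 CPM, with a mean of 86.4 ± 6.07 CPM (SD, n = 2). Dlg2 (ENSMUSG00000052572.17, chr7:90476672-92449247) had 19 and 18 reads, a mean of 18.3 ± 2.82 CPM. The tested genes had a median level of 28.8 CPM, so that Dlg2 lay below it and Dlg4 above it. Of the related genes, Dlg3 had 116 reads in replicate 1 and 122 in replicate 2 (118 ± 26.9 CPM) and Dlg1 had 27 and 33 reads (30.1 ± 9.92 CPM).

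The Dlgap genes were the most abundant of the scaffolds in reads. Dlgap1 (ENSMUSG00000003279.17, chr17:69969073-70821413) had 167 and 181 reads, which were 143 CPM in replicate 1 and 204 CPM in replicate 2. Dlgap3 (ENSMUSG00000042388.14, chr4:127169204-127237022) had 169 and 167 reads, or 145 and 188 CPM. Dlgap4 (ENSMUSG00000061689.15, chr2:156613705-156764363) had 173 and 131 reads, or 148 and 147 CPM, the closest pair of values among the 9 genes. Dlgap2, which is not among them, had 11 reads in replicate 1 and 17 in replicate 2 (14.3 ± 6.87 CPM).

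Both Shank genes gave few reads. Shank1 (ENSMUSG00000038738.15, chr7:44310253-44360572) had 56 and 35 reads, which were 47.9 CPM in replicate 1 and 39.4 CPM in replicate 2, and Shank3 (ENSMUSG00000022623.16, chr15:89499623-89560261) had 69 and 68 reads, or 59.1 and 76.5 CPM. The related Shank2 had 37 and 30 reads (32.7 ± 1.48 CPM). For the Homer genes, Homer1 (ENSMUSG00000007617.18, chr13:93299635-93405129) had 67 and 66 reads, which were 57.3 CPM in replicate 1 and 74.3 CPM in replicate 2. Homer3 (ENSMUSG00000003573.15, chr8:70282827-70294361) had 112 and 131 reads, or 95.9 and 147 CPM, and Homer2 had 65 and 52 reads (57.1 ± 2.04 CPM).

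**Figure D1:**
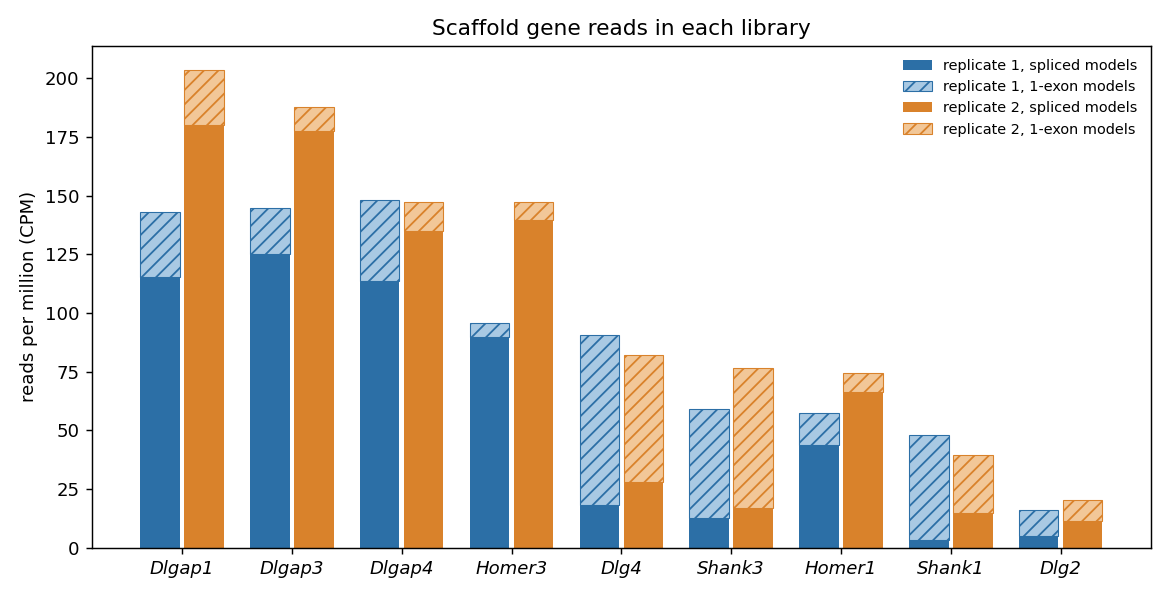
Level of each scaffold gene in CPM in replicate 1 (blue) and replicate 2 (orange), ordered by level, with each bar split into spliced models (solid) and 1-exon models (hatched) and no error bars. Dlgap1 and Homer3 stand higher in replicate 2, the Dlgap4 bars are level at 148 and 147 CPM, and most of the Dlg4, Shank1 and Shank3 bars is hatched.

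The design implies 1 comparison, that of the libraries with each other, and it shows how closely pools of the same kind agreed rather than any effect of a condition. Homer3 and Dlgap1 were lower in replicate 1 by more than read sampling. Their log2 ratios of replicate 1 over replicate 2 were -0.62 for Homer3 (adjusted p = 0.0124) and -0.51 for Dlgap1 (adjusted p = 0.0146) in a two-sided exact binomial test with Benjamini-Hochberg adjustment over 11681 genes. That is 2 of 9 scaffolds, beside 11.5% of all tested genes in either direction, 5.24% higher in replicate 1 and 6.25% higher in replicate 2. Among genes with at least 50 reads it was 2 of 8 scaffolds, beside 22.1% of all such genes. The other 7 did not pass, with log2 ratios between -0.38 for Dlgap3 (adjusted p = 0.112) and 0.28 for Shank1 (adjusted p = 0.706) in the same exact test. The median log2 ratio was -0.37 over the 9 scaffolds and -0.11 over all tested genes. The scaffold median was -0.24 with TMM-scaled totals and -0.089 with the length trend described next removed.

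Neither call held under another scaling. With TMM-scaled totals, which moved the median log2 ratio of all genes by 0.117, Homer3 had a log2 ratio of -0.49 (adjusted p = 0.0714) and Dlgap1 of -0.38 (adjusted p = 0.102). Across genes with at least 50 reads, transcript length and the log2 ratio were inversely related (rank correlation -0.496, over genes, which are not independent replicates), so that longer transcripts took a larger share of replicate 2. With that trend removed, the log2 ratio was -0.43 for Homer3 (adjusted p = 0.228) and -0.38 for Dlgap1 (adjusted p = 0.195). Over all alternatives tried the adjusted p of the exact test lay between 0.00718 and 0.278 for Homer3 and between 0.00272 and 0.195 for Dlgap1, and both genes stayed lower in replicate 1.

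Other proteins of the postsynaptic side were compared in the same way, from a list of 36 genes that covers receptors, signalling enzymes, adhesion molecules and relatives of the scaffolds. Of these, 34 had enough reads to be tested and 13 passed the exact binomial test, beside 11.5% of all tested genes. Among genes with at least 50 reads, 13 of 27 on the list passed, beside 22.1% of all such genes. Higher in replicate 1 were 5 genes: the dynein light chains Dynll1 (log2 ratio 0.79) and Dynll2 (0.63), Cript (0.75), which binds the PDZ domains of Dlg4, the NMDA receptor subunit Grin2b (0.83), and Nrgn (0.21), a calmodulin-binding protein of dendrites. Of these 5, Cript (log2 ratio 0.39, adjusted p = 0.219) and Nrgn (0.03, adjusted p = 0.915) no longer passed the exact test with the length trend removed. Higher in replicate 2 were 8 genes. They were the receptor subunits Grin1 (log2 ratio -0.40), Gria1 (-0.41) and Gria2 (-0.41), the kinase subunit Camk2b (-0.64), the adhesion molecule Nlgn3 (-0.79), the scaffolds Cnksr2 (-0.74) and Gphn (-0.54, of inhibitory synapses), and the actin-binding Cttn (-0.37).

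Under TMM scaling, 6 of the 34 genes passed, 5 of them higher in replicate 1, and Camk2b (log2 ratio -0.51) was the 1 gene that was higher in replicate 2, beside 10.1% of all tested genes under that scaling. With the length trend removed, 4 passed, beside 3.63% of all tested genes. The most abundant genes of the list were Nrgn, at 2145 CPM in replicate 1 and 1852 CPM in replicate 2, Camk2b (651 and 1016 CPM), Grin1 (361 and 476 CPM) and Gria2 (312 and 413 CPM). None of the 5 relatives Dlg1, Dlg3, Shank2, Homer2 and Dlgap2 passed the exact test.

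The 9 genes differed in the share of their reads that matched a whole annotated coding part. Reads that joined all exons of the coding part of an annotated transcript were counted as whole. Reads with a new combination of exons there were not, however long. Among these was an 11-exon model of Dlgap1, with 17 reads in replicate 1 and 25 in replicate 2. A low share can thus come from short reads or from new combinations. A coding part nested in a longer one was counted only on reads that also held its own first exon, since a shortened read of the longer form would otherwise pass. Homer3 had 74 whole reads of 112 in replicate 1 (66.1%) and 84 of 131 in replicate 2 (64.1%), and Homer1 had 48 of 67 (71.6%) and 55 of 66 (83.3%). Dlgap4 had 62 of 173 (35.8%) and 61 of 131 (46.6%), Dlgap3 had 104 of 169 (61.5%) and 118 of 167 (70.7%), and Dlgap1 had 51 of 167 (30.5%) and 71 of 181 (39.2%). In these 5 genes, coding forms could therefore be read from whole molecules.

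For Dlg4, 4 of 106 reads in replicate 1 (3.77%) and 7 of 73 in replicate 2 (9.59%) were whole. Neither library held a whole read of Dlg2 (0 of 19 and 0 of 18 reads, which allows a share of up to 15.8% in replicate 1 and 16.7% in replicate 2). The same was so for Shank1 (0 of 56 and 0 of 35 reads, up to 5.36% and 8.57%) and Shank3 (0 of 69 and 0 of 68 reads, up to 4.35% and 4.41%). The longest annotated coding parts of Shank1 and Shank3 measure 6501 and 5415 nt. What follows on exon choice thus concerns mainly the Homer and Dlgap genes and parts of Dlg4.

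Coverage along the transcript showed where the reads began. Along Homer1-203, 48 reads in replicate 1 and 56 in replicate 2 crossed the first junction, and 45 and 56 crossed the last. Homer3-203 was as even, with 95 and 106 reads at the first junction and 87 and 96 at the last. In Dlg4-203 the count was 5 and 8 reads at the first junction and 19 and 24 at the last, in Dlgap4-205 it was 31 and 37 at the first and 114 and 100 at the last, and in Dlgap3-201 it was 65 and 77 at the first and 145 and 157 at the last. Dlgap1-214 had 27 and 28 reads at the first junction, 32 and 37 at the second, 118 and 145 at the third, which lies downstream of the short starts of the gene, and 93 and 134 at the last. No read crossed the first 7 junctions of the Dlg2 transcript with the longest coding part, and its other junctions were crossed by 2 to 8 reads. The last junction of Shank3-203 was crossed by 14 reads in replicate 1 and 13 in replicate 2, and none of its other junctions by more than 2 reads. Junction counts of the Homer genes were thus nearly level along the transcript, those of Dlg4, Dlgap3 and Dlgap4 were higher at the last junction than at the first, those of Dlgap1 stepped up after the second junction, and those of Shank3 were high at the last junction alone.

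**Figure D2:**
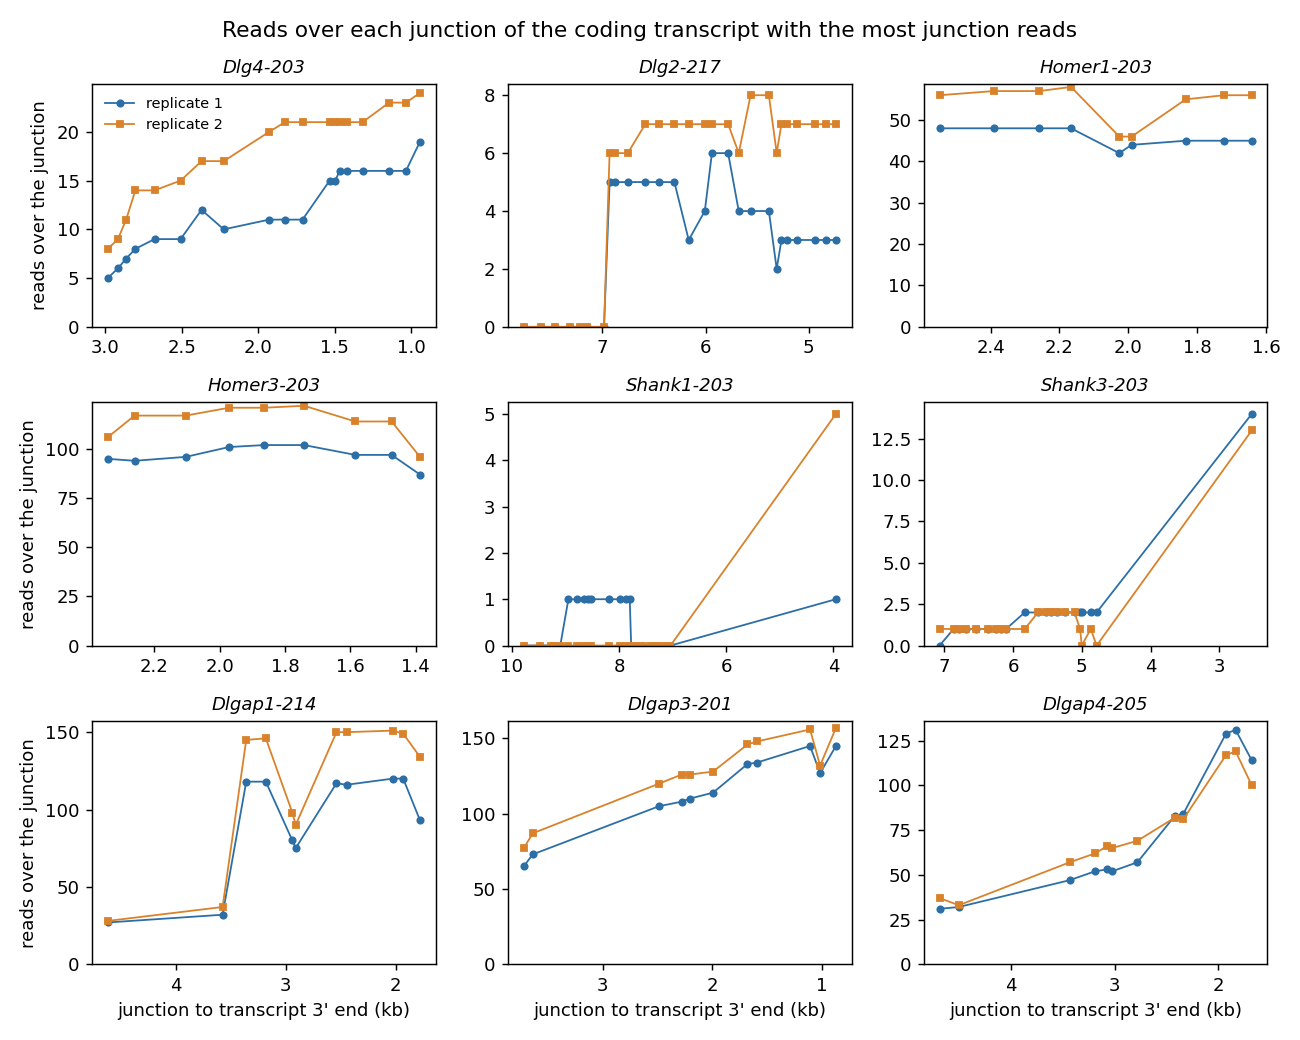
Reads that cross each junction of 1 coding transcript per gene in replicate 1 (blue) and replicate 2 (orange), against the distance from the junction to the 3′ end of the transcript in kb, with the 3′ end to the right. Homer1 and Homer3 run nearly level, Dlg4, Dlgap3 and Dlgap4 gain reads towards the 3′ end, Dlgap1 steps up at the third junction, and Shank3 reaches 14 and 13 reads at the last junction.

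Of the tested cassette exons, that of Dlgap1 was the most evenly split. Its 30-nt exon, printed above, was included by 74 reads and skipped by 29 in replicate 1 (71.8%, exact 95% interval 62.1 to 80.3), and included by 89 and skipped by 47 in replicate 2 (65.4%, 56.8 to 73.4). Dlgap1 reads also split between a long and a short form of the protein's N-terminal part, according to their first exon: 35 of 108 assignable reads in replicate 1 (32.4%) and 38 of 139 in replicate 2 (27.3%) came from the long start. The small exon was taken by 25 of 32 long-start reads in replicate 1 (78.1%) and 24 of 37 in replicate 2 (64.9%), and by 47 of 71 short-start reads (66.2%) and 66 of 99 (66.7%). The choice of the exon was thus mixed on both starts in both libraries.

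The whole Dlgap1 reads fell on 7 annotated coding forms, among which Dlgap1-209 had 13 reads in replicate 1 and 21 in replicate 2. Dlgap1-214 had 15 and 16, Dlgap1-211 had 8 and 15, Dlgap1-207 had 5 and 11, Dlgap1-210 had 6 and 2, Dlgap1-208 had 3 and 3, and Dlgap1-206 had 1 and 3. No single form held most of the whole reads in either library. A further choice lay at the end of a first exon, where donors 6 nt apart were used by 31 and 15 reads in replicate 1 and by 44 and 22 in replicate 2.

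Dlgap4 exchanged its 80-nt and 89-nt exons, printed above, almost one for one. In replicate 1, 82 of 111 reads across the region held the 80-nt exon alone (73.9%) and 24 the 89-nt exon alone (21.6%), while 1 read held both and 4 held neither. In replicate 2, 80 of 110 reads held the 80-nt exon alone (72.7%) and 28 the 89-nt exon alone (25.5%), while 1 held both and 1 neither. Against reads that join the same flanks directly, the 80-nt exon was included by 81 and skipped by 3 in replicate 1, and included by 78 and skipped by 1 in replicate 2. The 89-nt exon was included by 24 and skipped by 3 in replicate 1, and included by 28 and skipped by 1 in replicate 2. Counted by start, the 80-nt exon was found without the 89-nt exon on 49 of 55 reads from the long start of the gene in replicate 1 (89.1%) and on 58 of 68 in replicate 2 (85.3%). From the short start it was found without the 89-nt exon on 32 of 54 reads (59.3%) and 19 of 37 (51.4%). In both libraries the share was therefore lower on the short start, by more than the libraries differed from each other. Reads of the long start made up 57 of 112 in replicate 1 (50.9%) and 69 of 108 in replicate 2 (63.9%).

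Among whole Dlgap4 reads, the long form of Dlgap4-205 (2967 nt of coding sequence) had 38 reads in replicate 1 and 37 in replicate 2. Dlgap4-212 (2976 nt), which has the 89-nt exon in place of the 80-nt exon, had 3 and 7. The short coding forms, which start from exons of their own, were Dlgap4-204 (855 nt) with 12 whole reads in each library, Dlgap4-201 (732 nt) with 5 in replicate 1 and 1 in replicate 2, and Dlgap4-203 (1359 nt) with 4 in each. The long coding forms thus held more of the whole reads than the short ones in both libraries. Whole reads must match an annotated coding form, so this count need not give the balance of long and short molecules. By start, 55 of 112 reads in replicate 1 (49.1%) and 39 of 108 in replicate 2 (36.1%) came from the short start. Another Dlgap4 exon, of 51 nt (chr2:156707078-156707128), was included by all 52 reads in replicate 1 and all 65 in replicate 2. Before the last exon, 114 reads used one donor and 18 another in replicate 1 (86.4%), and 100 and 15 in replicate 2 (87.0%).

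Dlgap3 varied less. Its 33-nt exon part, printed above, was kept by 127 reads and dropped by 19 in replicate 1 (87.0%), and kept by 132 and dropped by 25 in replicate 2 (84.1%). The 2 matching coding forms, with the exon part (Dlgap3-203, whose coding part Dlgap3-201 shares) and without it (Dlgap3-202), had 93 and 11 whole reads in replicate 1 and 96 and 22 in replicate 2.

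Dlg4 is known for an exon that is skipped outside mature neurons, which leaves a transcript that is degraded, and the 110-nt exon printed above is one whose skipping the annotation pairs with decay. All 15 reads across it in replicate 1 and all 23 in replicate 2 included it (exact 95% intervals 78.2 to 100 and 85.2 to 100%). These counts did not reach the 20 reads in each library that a test needed. The whole Dlg4 reads fell on Dlg4-203 (4 in replicate 1 and 6 in replicate 2) and Dlg4-215 (0 and 1), of 22 annotated transcripts. Acceptors 9 nt apart elsewhere in Dlg4 were used by 7 and 1 reads in replicate 1 and by 11 and 3 in replicate 2.

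Most Homer1 reads of the long form carried the 36-nt exon, which makes them the 1c type. The exon was included by 42 reads and skipped by 1 in replicate 1 (97.7%, 87.7 to 99.9), and included by 46 and skipped by 8 in replicate 2 (85.2%, 72.9 to 93.4). Homer1-203 alone held 41 of the 48 whole reads in replicate 1 and 44 of the 55 in replicate 2, and Homer1-201, the 1b type, held 1 and 8. None of the 5 tested cassette exons of the scaffolds passed a two-sided Fisher's exact test between the libraries with Benjamini-Hochberg adjustment, beside 0.0222% of 4508 cassette exons over all genes. The Homer1 exon was the 1 with an unadjusted p below 0.05 (p = 0.0409, adjusted p = 1, exact test).

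**Figure D3:**
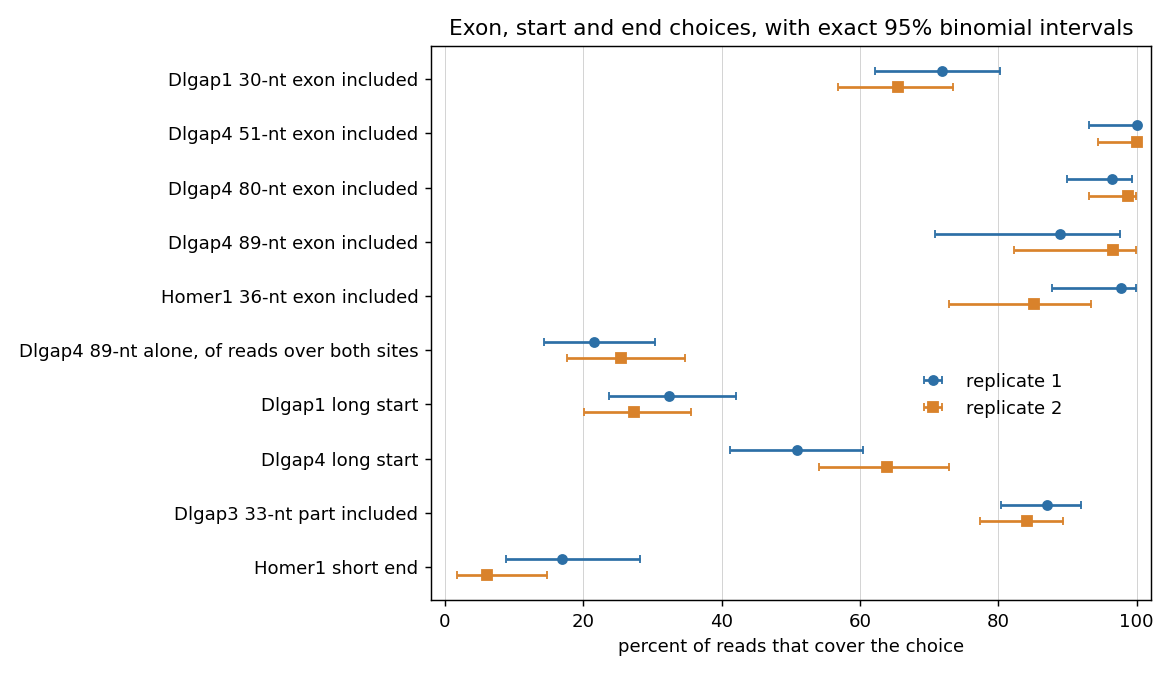
Percent of reads that take each exon, start or end choice of Dlgap1, Dlgap4, Homer1 and Dlgap3 in replicate 1 (blue) and replicate 2 (orange), with exact 95% binomial intervals. For each included exon, reads that hold it are set against reads that join the same flanks directly. Reads with the other Dlgap4 exon are therefore left out of the rows for its included 80-nt and 89-nt exons. Of all reads over that region, the 89-nt exon alone made up 21.6% in replicate 1 and 25.5% in replicate 2. The 30-nt exon of Dlgap1 is mixed at 71.8% and 65.4%, short ends of Homer1 are the minority at 16.9% and 6.06%, and the intervals of the libraries overlap at each choice.

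Homer1 ended mostly as the long form. In replicate 1, 11 reads ended in the last exon of a short form and 54 in that of a long form, so that 16.9% were short (exact 95% interval 8.76 to 28.3), and a further 2 reads ended in neither. In replicate 2, 4 reads were short and 62 long, so that 6.06% were short (1.68 to 14.8). The mean was 11.5 ± 7.68% (SD, n = 2), and the intervals of the libraries overlapped. Homer1-204, whose tail to the stop codon is printed above and which is the Homer1a type, accounted for 9 short ends in replicate 1 and 3 in replicate 2, and a second short end, shared by Homer1-205 and Homer1-206, for 2 and 1. The whole reads with this second end were 1 of Homer1-205 in replicate 1 and 1 of Homer1-206 in replicate 2. Unspliced reads classed as genomic made up 5 of the 11 short ends in replicate 1, of which 4 lay on a model that runs past the annotated end of Homer1-204, and 1 of the 4 in replicate 2. Counting spliced reads alone, 6 were short and 45 long in replicate 1, and 3 were short and 56 long in replicate 2. The short form was thus present in both libraries but was the minority in each.

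Homer3 was mostly 1 form. Homer3-203 held 67 of 112 reads in replicate 1 (59.8%) and 72 of 131 in replicate 2 (55.0%), and an incomplete match with 9 exons held 13 and 15. An unannotated donor at chr8:70283524 was used by 3 of 98 reads in replicate 1 and 10 of 117 in replicate 2. For the other genes with a spliced leading model, Homer1-203 held 61.2% of all Homer1 reads in replicate 1 and 66.7% in replicate 2, and Dlgap3-201 held 33.1% of all Dlgap3 reads in replicate 1 and 38.3% in replicate 2. None of the 3 shares passed a two-sided Fisher's exact test between the libraries. In that test all 1-exon models of a gene count as 1 model, and over both libraries this pooled class led in the other scaffolds, so that for those 5 of the 8 tested the counts are the ones of the 1-exon comparison given next. Of the 8, 0 passed at the adjusted threshold, beside 1.06% of 6607 genes, with an adjusted p of 0.0544 for Shank1 and 0.0539 for Dlgap4 (Fisher's exact test). At an unadjusted p below 0.05 there were 3, and the share of all genes at that threshold was not counted.

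In Dlg4, Dlg2, Shank1, Shank3, Dlgap1 and Dlgap4, the 1-exon models pooled held more reads over both libraries than any spliced model. In replicate 2 alone this was not so of Dlgap1 (21 reads, against 25 on an 11-exon model) and Dlgap4 (11 reads, against 22 on Dlgap4-205). The 1-exon share of reads was 80.2% in replicate 1 and 65.8% in replicate 2 for Dlg4, 92.9% and 62.9% for Shank1 and 78.3% and 77.9% for Shank3. All 3 genes lay above the 90th percentile of tested genes, which was 37.5% in replicate 1 and 30.4% in replicate 2. Dlg2 had 13 1-exon reads of 19 in replicate 1 and 8 of 18 in replicate 2, too few to be tested. Lower shares were found for Dlgap4 (23.1% and 8.40%), Homer1 (23.9% and 10.6%), Dlgap1 (19.2% and 11.6%), Dlgap3 (13.6% and 5.39%) and Homer3 (6.25% and 5.34%), all above the median gene, at 5.45% in replicate 1 and 4.11% in replicate 2.

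In all 9 scaffolds the 1-exon share was lower in replicate 2, a direction seen in 60.1% of tested genes. It differed between the libraries in 2 of the 8 tested scaffolds, beside 1.28% of 6423 genes. These were Shank1 (exact 95% intervals 82.7 to 98.0% in replicate 1 and 44.9 to 78.5% in replicate 2, adjusted p = 0.0484) and Dlgap4 (adjusted p = 0.0478), by a two-sided Fisher's exact test with Benjamini-Hochberg adjustment. Both lie near the threshold, since the same counts missed it when adjusted over the genes of the leading-model test. With genes of at least 10 reads in each library entered, and so more genes tested, neither passed (adjusted p = 0.0651 for Shank1 and 0.0643 for Dlgap4, exact test). With models classed as genomic left out, Dlgap4 had no 1-exon read in either library, and Shank1 had too few reads left to be tested.

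**Figure D4:**
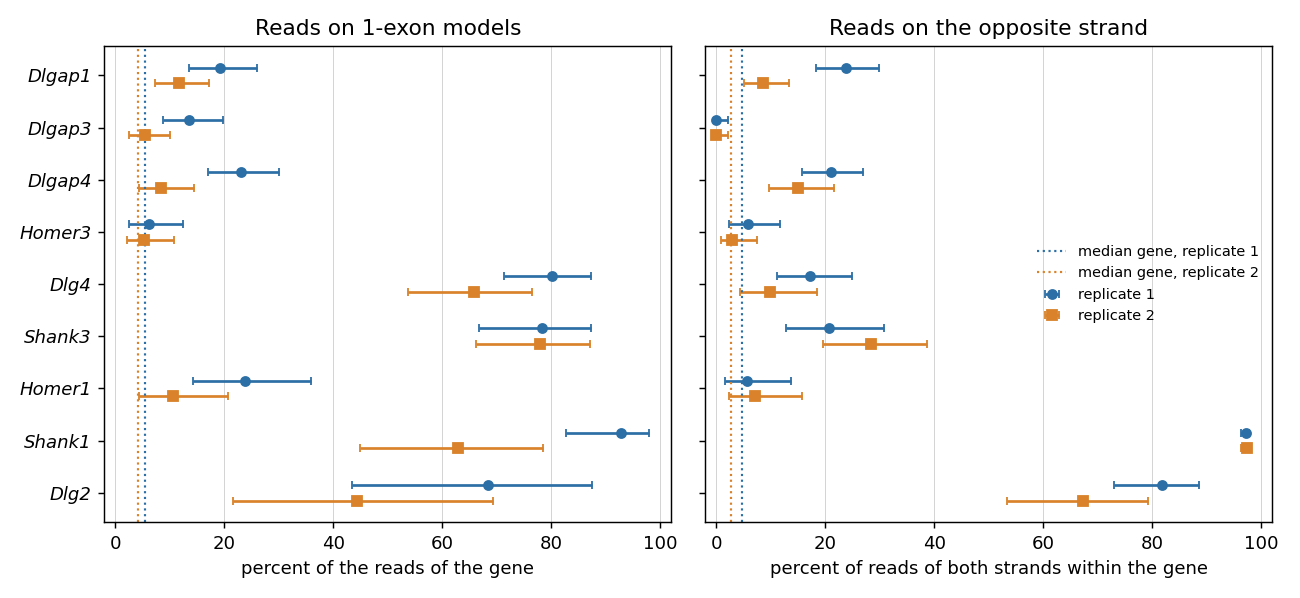
Percent of the reads of each scaffold gene on 1-exon models (left) and percent of reads of both strands that lie opposite the gene (right) in replicate 1 (blue) and replicate 2 (orange), with exact 95% binomial intervals and the median gene as dotted lines. Dlg4, Shank1 and Shank3 have the largest tested 1-exon shares, and the opposite share at Shank1 is 97.2% and 97.4%.

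In most of these genes nearly all 1-exon reads were on models that overlap the last exon. For Dlg4 this was so of 84 of 85 reads in replicate 1 and 48 of 48 in replicate 2, for Shank3 of 53 of 54 and 52 of 53, for Shank1 of 50 of 52 and 21 of 22, and for Dlgap4 of 40 of 40 and 11 of 11. In Homer1 this was so of 9 of 16 reads in replicate 1 and 6 of 7 in replicate 2. Dlg2 and Dlgap1, which have long introns, differed: 6 of 13 and 6 of 8 1-exon reads of Dlg2, and 15 of 32 and 6 of 21 of Dlgap1, lay within an intron. In the deposited tables each library's 1-exon reads are gathered into few models with fixed ends. The leading 1-exon model of Dlg4 held 82 reads in replicate 1 (chr11:70044718-70045532, classed as genomic) and 46 in replicate 2 (chr11:70044589-70045532, classed as an incomplete match). That of Shank3 held 53 reads in replicate 1 (chr15:89557735-89560259, an incomplete match) and 52 in replicate 2 (chr15:89555080-89560259, genomic). The last exon of Shank3 starts at chr15:89557735, so the model of replicate 2 also takes in part of the intron before it.

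Within each gene these models end at nearly the same base in both libraries, but they start at different bases and carry other class names. With the class "genomic" left out, the 1-exon share of Dlg4 was 0% in replicate 1 and 64.8% in replicate 2, so that a filter on that class would create a difference between the libraries (adjusted p = 3.08e-06, Fisher's exact test). A stricter filter, which keeps fully annotated models alone and so also drops incomplete matches and new chains, acts on totals. With it, Dlg4 kept 6 reads in replicate 1 and 8 in replicate 2, Shank1 and Shank3 kept 0, and the summed level of the 9 scaffolds was 287 CPM on average over the libraries, against 891 ± 125 CPM (SD, n = 2) over all models.

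Spliced chains of exons were shared between the libraries to an unequal degree. Of the spliced reads of both libraries together, 92.4% in Dlgap3, 91.8% in Homer1, 87.3% in Homer3, 83.3% in Shank3, 81.0% in Dlgap1 and 81.0% in Dlgap4 lay on a chain found in both libraries. The share was 76.5% in Shank1, 45.7% in Dlg4 and 0% in Dlg2, where no spliced chain was seen in both. Several of the most abundant spliced models were no full annotated transcript. In Dlgap1 a new combination of known junctions with 11 exons held 17 reads in replicate 1 and 25 in replicate 2, against 13 and 21 on the annotated Dlgap1-209. In Dlgap4 the annotated Dlgap4-205 held 26 and 22 reads and a new combination of 7 exons held 18 and 11. Incomplete matches came next to Dlgap3-201 in Dlgap3, with 28 and 25 reads on 10 exons and 18 and 15 on 6 exons. The leading spliced model of Shank3 was an incomplete match of 2 exons, with 12 reads in replicate 1 and 13 in replicate 2, and a model of 20 exons had 0 and 1. The leading spliced model of Shank1 had 3 exons, with 2 and 5 reads, and that of Dlg2 had 22 exons, with 0 and 2 reads.

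Spliced Shank1 reads included an exon of 81 nt that the annotation lacks, at chr7:44356118-44356198. Its acceptor was joined to the donor at chr7:44354644 by 2 of 3 reads in replicate 1 and 8 of 13 in replicate 2. Of these, 2 and 5 reads also used its own donor, and in replicate 2 the other 3 ran past that donor and ended in the intron. The length of the exon keeps the reading frame.

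Far more reads lay opposite Shank1 than on it. Models on the minus strand within the gene held 1932 reads in replicate 1 and 1291 in replicate 2 (1654 and 1453 CPM, mean 1553 ± 142 CPM, SD, n = 2), against 56 and 35 reads on the Shank1 strand. They made up 97.2% of the reads of both strands in replicate 1 and 97.4% in replicate 2. Over protein-coding genes with at least 10 reads on both strands together, 10559 in replicate 1 and 9789 in replicate 2, the median share was 4.67% in replicate 1 and 2.78% in replicate 2, and more reads opposite than on the gene were seen in 11.1% of genes in replicate 1 and 7.32% in replicate 2. By reads opposite, Shank1 ranked 3rd in replicate 1 and 5th in replicate 2 among 22028 protein-coding genes.

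The opposite reads formed 1 main block in each library. A single 1-exon model held 1921 of them in replicate 1 (99.4%, chr7:44357935-44359356) and another held 1280 in replicate 2 (99.1%, chr7:44356620-44358529), and these overlap by 595 nt. Both lie in the last exon of Shank1 (chr7:44356620-44360572, 3953 nt), most of which is 3′ untranslated, since the coding part ends at chr7:44357334. Spliced reads opposite Shank1 numbered 3 in replicate 1 and 4 in replicate 2. Apart from 1 read of replicate 2 that belonged to 1700008O03Rik, the opposite models belonged to genes that are not in the annotation.

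On the Shank1 strand, the genome has a run of 13 T at chr7:44357928-44357940 and a run of 25 T at chr7:44357951-44357975. The first run contains the lower end of the model of replicate 1, and the second lies 16 nt inside that model and within that of replicate 2. Read from the minus strand both are runs of A, at or near the 3′ end of the opposite model of replicate 1. From the 3′ end of the opposite model of replicate 2 they lie 1308 and 1331 nt away. The 1-exon reads of Shank1 itself lay in the same exon, with 33 reads at chr7:44359356-44360043 in replicate 1 and 21 at chr7:44358606-44360099 in replicate 2, and both of these models hold a run of 11 A (chr7:44359817-44359827). Whether cDNA was primed on these runs was not tested. The strand is as deposited, and for 1-exon reads it has no splice sites to check it against.

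**Figure D5:**
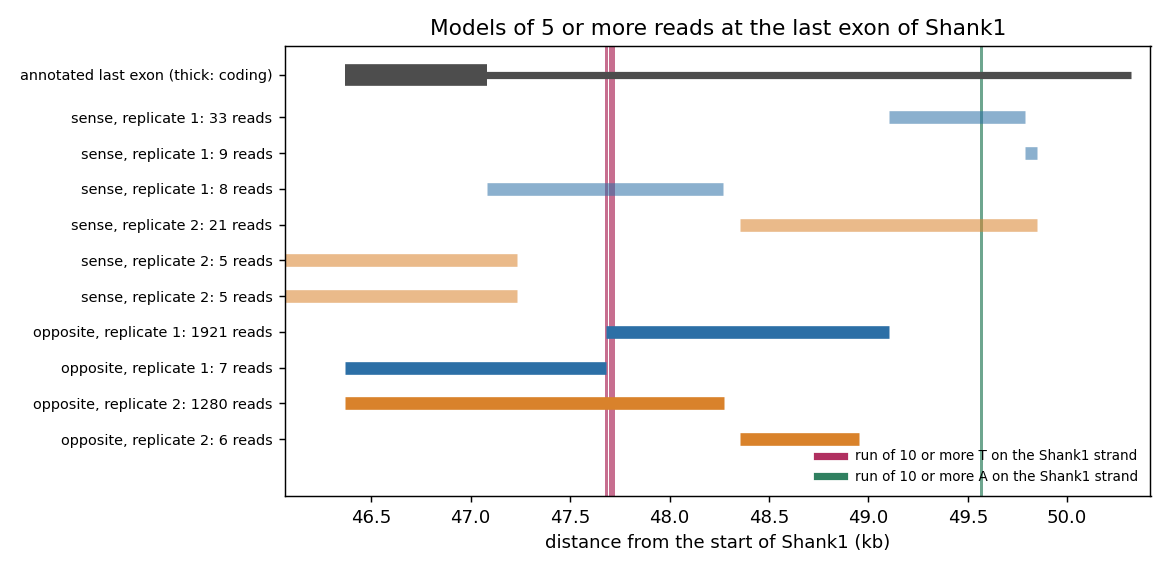
Models of at least 5 reads at the last exon of Shank1, by distance from the start of the gene in kb, with the exon at the top (thick where coding), models on the Shank1 strand, models opposite it, and lines at runs of T (red) and A (green) of 10 or more on the Shank1 strand. The opposite model of 1921 reads in replicate 1 has its lower end, which is its 3′ end, at the runs of T, and that of 1280 reads in replicate 2 spans them.

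The other scaffolds had fewer reads opposite. Dlg2, whose span includes very long introns, had 85 opposite reads in replicate 1 (81.7%) and 37 in replicate 2 (67.3%), spread over 56 models. Dlgap1 had 52 and 17 (23.7% and 8.59%), Dlgap4 had 46 and 23 beside 173 and 131 of its own, Dlg4 had 22 and 8 (17.2% and 9.88%) and Shank3 had 18 and 27 (20.7% and 28.4%). Homer1 had 4 and 5 opposite reads (5.63% and 7.04%), Homer3 had 7 and 4, all of the neighbouring gene Ddx49 (5.88% and 2.96%), and Dlgap3 had none beside 169 and 167 reads of its own, which allows a share of up to 1.78% in replicate 1 and 1.80% in replicate 2. All 8 scaffolds with opposite reads, Shank1 included, lay above the median gene in both libraries.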

How the data were processed

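Full-length cDNA was sequenced from 2 pools of 3 animals, described as biological replicates in the labels. The p-values take each read as an independent draw, so they measure counting error only and include no spread between animals or libraries. The authors deposited, per the file headers, 1 table per library of raw read counts for each transcript model, built by TALON on mm10 with GENCODE M21 names, and 1 annotation with the exons of each model; the submitters' further settings are not given here. Reads had been assigned to models and classed (known, incomplete match, new combination, new junction, genomic) before deposit, so reads of close relatives or overlapping genes depend on that assignment, and CAST/EiJ alleles were aligned to a C57BL/6J genome. Effects of alleles were not analysed here. Coordinates of 1-exon models are those of the authors' models and need not be the ends of each read.

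From these counts, CPM was computed over all reads of a table, and models were matched between libraries by strand and intron chain. A two-sided exact binomial test set each gene's reads against the split of the library totals (minimum of 10 reads in all), and shares were compared with Fisher's exact test where each library had at least 20 reads, at an adjusted p of 0.05 over the whole table. Intervals are exact Clopper-Pearson intervals at 95% and, like the limits of 3 reads for a count of 0, cover counting error only. TMM (edgeR 4.0.16) and median-ratio factors (DESeq2 1.42.0) were used for scaling only, and the length trend was fitted by lowess with a span of 0.3. The tests were also run on simulated reads that vary by counting error alone. That check cannot show how the tests behave where libraries differ by more than counting error. Work was done in Python 3.11.15 with pandas 2.3.3, scipy 1.17.1 and statsmodels 0.14.6, and in R 4.3.3. The members and the lists of 36 postsynaptic genes and 33 markers were chosen with earlier results of these data known. The text names all 9 members, their most abundant models, each cassette exon with enough reads, each whole coding form, and of the postsynaptic list the 4 most abundant genes, relatives of members and genes past the test. The unannotated sites and the exon choices below the read minimum were named after their values were seen.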

Additional observations from a re-analysis of the deposited data

How the results depend on the processing

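The alternatives for scaling and counting moved the counts of calls. Of the 9 scaffolds, 2 differed between the libraries over all reads. With TMM or DESeq2 factors 0 did by the exact binomial test (2 at an unadjusted p below 0.05), with the length trend removed 0 did (2 unadjusted), and on annotated models 1 of 6 tested did, Dlgap1. On spliced models 3 of 9 did. Of the other postsynaptic genes 13 of 34 passed, against 6 with TMM, 6 with DESeq2 factors, 4 with the length trend removed, 7 of the 17 tested on annotated models, 11 of 29 on spliced models and 10 of 36 with no read minimum. Of all tested genes 11.5% passed in the main test, 10.1% with TMM, 10.2% with DESeq2 factors and 3.63% with the length trend removed. The share was 12.0% on annotated models, 12.4% on spliced models and 6.07% with no read minimum. The summed scaffold level of 891 CPM was 287 on annotated models, 648 on spliced models, and 803 to 979 when 1 library was left out. The Homer1 short share was 6.06 to 16.9% and the opposite share at Shank1 97.2 to 97.4% when 1 library was left out. That opposite share was 33.2% on average over spliced reads, of which there were 3 opposite and 4 on the gene in replicate 1, and 4 and 13 in replicate 2. The 1-exon share differed in 2 scaffolds, in 0 with a minimum of 10 reads and in 1, Dlg4, without genomic models. Over all genes it differed in 82 of 6423, in 78 of 8639 with that minimum and in 322 of 5912 without genomic models.

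Directions reversed as follows. The log2 ratio became -0.71 (annotated) and -0.62 (spliced) for Dlg4, -1.82 (spliced) for Shank1, and -0.25 (annotated) and -0.24 (spliced) for Dlgap4, 0.39 for Cnksr2 (annotated), 0.053 (TMM) and 0.049 (DESeq2) for Homer2, and 0.034 (TMM), 0.029 (DESeq2) and 0.16 (length trend removed) for Shank2. On spliced reads the leading-model share, replicate 1 minus replicate 2, became -3.03 percentage points for Dlgap1, 5.82 for Homer1 and -4.95 for Dlg4. Without genomic models the difference in 1-exon share became -5.33 points for Dlgap1, -5.34 for Homer3, -9.23 for Homer1 and -64.8 for Dlg4. Beyond the choice of reads itself, the cause was not tested. Of 261 values of single genes and exons under an alternative, 185 stayed the same. For tested values this means the same direction and side of the threshold, and for mean CPM a shift smaller than the SD. Of the rest, 41 were no longer past the threshold, 1 passed it (Dlgap3 on spliced reads), 16 mean CPM values moved further and 18 values reversed. No paired analysis was possible because the study has 1 group. Counts are lowest for Dlg2, with 19 and 18 reads.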
